A study of Mus musculus with 20 samples.

Results

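Neat1, Malat1 and the genes of 5 paraspeckle proteins, Sfpq, Nono, Pspc1, Tardbp and Rbm14, were followed across all groups of a study that introduced a CRISPR activation (CRISPRa) mouse. The 7 genes were chosen by name, as those rows of the 25869 genes measured whose mouse symbols they are. The choice was made on a measured value, since Neat1 is among them for its fall in sgBcl-2 against sgNT MEFs. That contrast is therefore described here, and no test of a member is read from it. All 7 genes were measured in all 20 libraries, with at least 366 reads for Neat1 and 628 reads for any of the other members, and all 7 passed the filter on low values in every comparison.

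The 20 RNA-seq libraries fall into 8 groups. Mouse embryonic fibroblasts (MEFs), which are connective tissue cells grown from E14 embryos, gave 2 WT libraries and 8 libraries from dCas9a-SAM KI/+ mice, which carry 1 knock-in copy of a cassette for a catalytically dead Cas9 fused to transcription activators. Of these 8, 2 had no sgRNA, 2 had a non-targeting control sgRNA (sgNT) and 4 had sgBcl-2, an sgRNA directed to the Bcl-2 promoter. The labels number the embryonic lines 1 and 2, and 2 of the sgBcl-2 libraries belong to each number. Whether these are separate guides or separate cultures is not given in the sources used here. The lymphoma cell lines were derived from the tumours of 6 lethally irradiated mice that had been given foetal liver blood progenitors of the genotype Eµ-Myc/dCas9a-SAM KI/+ carrying sgBcl-2, so that Myc is driven in B cells by an immunoglobulin enhancer and all lines carry sgBcl-2. By surface IgM they are 4 IgM-positive lines (1 to 4) and 2 IgM-negative lines (1 and 2), each from a different mouse. A further 2 libraries came from IgM-positive primary tumours of the same genotype, for which the labels name the mice of IgM-positive lines 1 and 2 but in opposite order in 2 places, so that neither was paired with a line. The remaining 2 libraries are preB-ALL, a precursor B cell leukaemia driven by BCR-ABL1 (p190T/+), with the titles P190CreERLSLErg and P190RagCreErg.

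Paraspeckles are nuclear bodies that assemble on the long isoform of the Neat1 RNA. SFPQ and NONO coat this RNA and stabilise it, PSPC1 belongs to the same DBHS protein family, and RBM14 is needed for the body to form. TARDBP (TDP-43) binds Neat1 and favours the short, polyadenylated isoform, which does not build paraspeckles by itself. Malat1 is the neighbouring nuclear RNA and localises to nuclear speckles, which hold splicing factors. Neat1 is known to be induced by stress, for example through p53 and hypoxia-inducible factors, and paraspeckles retain some RNAs and proteins in the nucleus.

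Both RNA genes lie on chromosome 19 of GRCm38, on the minus strand. Neat1 is annotated at chr19:5824708-5845480 and Malat1 at chr19:5795690-5802672, and Rbm14 lies on the same chromosome at chr19:4800566-4811634. Sfpq (chr4:127020716-127051101) and Tardbp (chr4:148612382-148627084) are on chromosome 4, Nono (chrX:101429560-101448593) is on the X chromosome and Pspc1 (chr14:56722441-56778318) on chromosome 14. GENCODE gives Neat1 a long transcript of 20771 bases in 1 exon and a short one of 3004 bases in 2 exons from nearly the same start, and gives Malat1 6983 bases in 1 exon. The 3′ ends are shown because the library kit selects polyadenylated RNA, and the long Neat1 and the mature Malat1 RNA end instead in a genome-encoded A-rich tract, cut out by RNase P in front of a tRNA-like RNA. In the following GRCm38 sequences, read on the minus strand from chr19:5824708-5824817 and chr19:5795982-5796091, capitals mark all runs of at least 8 bases that the RNAs share.
Neat1 long isoform end: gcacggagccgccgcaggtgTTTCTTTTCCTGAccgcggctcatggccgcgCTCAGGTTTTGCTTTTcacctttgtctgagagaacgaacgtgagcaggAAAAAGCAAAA
Malat1 end: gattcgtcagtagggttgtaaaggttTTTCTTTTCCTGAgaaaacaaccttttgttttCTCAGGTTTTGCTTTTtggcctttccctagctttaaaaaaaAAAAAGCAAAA
They share 3 blocks, of 13, 16 and 11 bases, which make up 40 of the 110 bases in each. The longest A run of the stretch is 12 bases in Malat1 and 5 bases in Neat1. The annotated tRNA-like genes, Mascrna at chr19:5795924-5795981 and Gm27702 at chr19:5824652-5824707, start at the next base in each case. The short Neat1 isoform ends differently. The last 60 bases of it (chr19:5842307-5842366, minus strand), with the polyadenylation signal AATAAA in capitals, are as follows.
Neat1 short isoform end: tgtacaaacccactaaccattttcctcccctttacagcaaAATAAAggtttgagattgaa
The signal starts 20 bases before the end. Values per gene do not separate the isoforms, and how far each of these ends was captured was not tested. The kit does not mark the strand, so that antisense RNA at these loci would be counted with them.

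RefSeq promoters (GRCm38.p6, 250 bases before to 50 bases after the start) were found for 6 of the 7 members. The promoters of Sfpq (plus strand, chr4:127021051-127021350), Rbm14 (minus strand, chr19:4811585-4811884) and Malat1 (minus strand, chr19:5802623-5802922) are shown, because the first 2 genes were the partners with the largest difference between lymphoma lines and MEFs and Malat1 differed in the opposite direction. Capitals mark the motif CCAAT, searched on both strands (CCAAT or ATTGG).
Sfpq: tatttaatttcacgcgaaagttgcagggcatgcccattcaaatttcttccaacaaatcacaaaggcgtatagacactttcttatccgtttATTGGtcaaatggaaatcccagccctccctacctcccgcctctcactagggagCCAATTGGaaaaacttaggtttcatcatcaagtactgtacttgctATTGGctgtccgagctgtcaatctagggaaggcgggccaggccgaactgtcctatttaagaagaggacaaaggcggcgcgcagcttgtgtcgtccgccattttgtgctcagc
Rbm14: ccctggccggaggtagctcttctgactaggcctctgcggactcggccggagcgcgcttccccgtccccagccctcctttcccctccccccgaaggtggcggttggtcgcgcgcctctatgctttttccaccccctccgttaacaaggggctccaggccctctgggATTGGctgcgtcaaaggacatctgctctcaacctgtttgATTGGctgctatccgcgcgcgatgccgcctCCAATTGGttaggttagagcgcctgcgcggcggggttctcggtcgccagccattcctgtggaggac
Malat1: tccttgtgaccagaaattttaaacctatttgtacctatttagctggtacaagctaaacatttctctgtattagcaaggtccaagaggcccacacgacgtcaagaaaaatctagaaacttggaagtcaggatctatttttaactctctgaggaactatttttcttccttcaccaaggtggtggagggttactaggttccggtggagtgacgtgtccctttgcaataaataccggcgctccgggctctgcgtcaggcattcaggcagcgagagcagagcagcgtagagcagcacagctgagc
The motif was found at 4 positions in Sfpq and 4 in Rbm14, where 2 of the positions overlap in a CCAATTGG in each promoter. It was found at 2 positions in Nono, 1 in Pspc1 and 0 in Tardbp and Malat1. Tardbp, with 0 positions, was also higher in the lymphoma lines than in MEFs. The promoters shown were picked by their expression values, and a relation of the motif to expression was not tested. Of all 32851 promoters in the table, 37.4% held CCAAT and 1.06% held it at 4 or more positions. None of the 6 promoters held CACGTG, GAANNTTC or TATAAA on either strand, which were present in 7.15%, 7.86% and 13.6% of all promoters.

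Depth was between 12474885 and 26678417 reads per library, and lowest in preB-ALL. Bcl2, the gene that sgBcl-2 targets, was between 46.8 and 71.8 CPM (reads per gene scaled to the same library total) in the 4 sgBcl-2 MEF libraries and between 11.2 and 17.9 CPM in the other 6 MEF libraries. All 8 B cell markers were detected in the lymphoma and leukaemia libraries, and all 12 fibroblast markers in the MEFs. WT library 2 stood apart, with a summed level of 10892 CPM for the fibroblast markers against 21387 to 28064 CPM in the other MEFs, and of 259 CPM for 7 myeloid markers against 7.26 CPM or less. The preB-ALL libraries differed from all others in the RNA extraction kit, the IL7 culture and the sequencing run, and read 0 for all 15 mitochondrial genes, which took 2.24% to 9.04% of the reads elsewhere. Their fibroblast markers summed to 6824 and 3631 CPM, against 69.7 to 215.8 CPM in the lymphoma lines and 1342 and 1373 CPM in the primary tumours. The median of the 12 markers was 180 and 90.1 CPM in preB-ALL. It was only 0.55 and 0.70 CPM in the primary tumours and 0.20 to 1.09 CPM in the lines, so many of the markers were near 0 in the tumours. In bulk libraries, a change in the proportion of cells and a change in the RNA per cell cannot be told apart. CPM is not scaled to transcript length, so levels are compared between groups for 1 gene and not between genes.

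**Figure D1:**
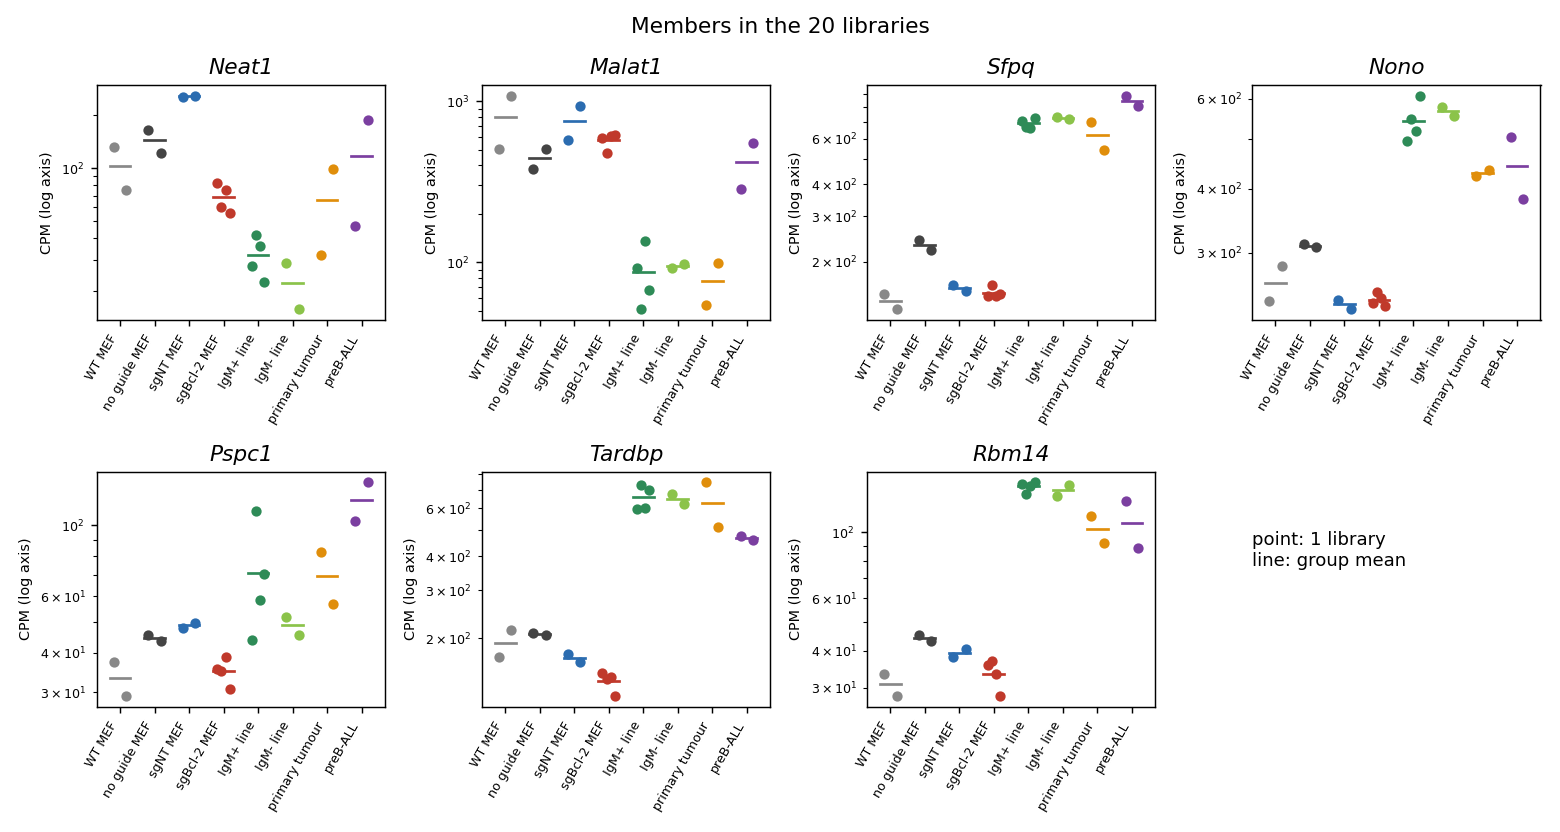
CPM of each member (log axis) in the 20 libraries, by group, where points are libraries and lines are group means. Neat1 lies between 15.8 and 41.9 CPM in the 6 lymphoma lines and at 253 and 259 CPM in the sgNT MEFs, whereas Sfpq, Tardbp and Rbm14 are higher in every B cell library than in every MEF library.

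In the MEF contrast that it was chosen on, Neat1 was lower with sgBcl-2 than with sgNT, and the log2 fold changes of the 5 protein genes were all smaller in size. Neat1 was at 82.9 and 60.3 CPM in sgBcl-2 line 1, at 75.5 and 55.7 CPM in sgBcl-2 line 2, and at 253 and 259 CPM in the sgNT libraries. All 4 sgBcl-2 libraries were below both sgNT libraries and also below both no-guide libraries, which were at 166 and 122 CPM. The means differed 3.73-fold, and the log2 fold change of sgBcl-2 against sgNT was -1.83 ± 0.14 (SE). WT MEFs were at 132 and 75.5 CPM, the latter in library 2, which stood apart in its fibroblast and myeloid markers.

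Malat1 did not separate sgBcl-2 from sgNT. It was at 588, 477, 605 and 616 CPM with sgBcl-2 and at 576 and 934 CPM with sgNT, and the groups overlapped. Its log2 fold change was -0.28 ± 0.19 (SE), and 0.10 without the sgNT library of line 2, which alone lay above the sgBcl-2 libraries.

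The DBHS protein genes split. Sfpq was at 147, 162, 147 and 149 CPM with sgBcl-2 and at 162 and 154 CPM with sgNT, a log2 fold change of 0.03 ± 0.06 (SE). Nono was between 236 and 252 CPM with sgBcl-2 and at 243 and 233 CPM with sgNT, a log2 fold change of 0.12 ± 0.06 (SE). Pspc1 was at 35.6, 35.1, 38.9 and 30.8 CPM with sgBcl-2 and at 47.8 and 49.5 CPM with sgNT. The Pspc1 groups did not overlap, and its log2 fold change was -0.39 ± 0.09 (SE), in the direction of Neat1 and smaller.

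Of the remaining partners, Tardbp was at 149, 142, 144 and 123 CPM with sgBcl-2, below the 175 and 164 CPM with sgNT, with a log2 fold change of -0.19 ± 0.07 (SE). Rbm14 was between 28.1 and 36.8 CPM with sgBcl-2 and at 38.0 and 40.3 CPM with sgNT, with a log2 fold change of -0.14 ± 0.11 (SE). This contrast chose the members, so no call of a member is given. Over all 14676 genes tested, 4.24% were past the threshold of limma in the lower direction. Among 23 other paraspeckle protein genes the median log2 fold change was 0.05, beside -0.01 over all genes, with 1 of 23 past the threshold in either direction, where 10.8% of all genes were. For the 9 nuclear speckle protein genes the median was 0.07.

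In sgNT against no-guide MEFs the RNAs and most protein genes had opposite signs. The comparison of sgNT with no-guide MEFs uses the same sgNT libraries, so the values of the members are set beside the former without a test. Counts past the threshold are given for all genes and for other lists, as description only. Neat1 was 1.78-fold higher in sgNT than in no-guide MEFs by group means, with a log2 fold change of 0.83 ± 0.13 (SE). Malat1 was at 381 and 508 CPM without a guide, below both sgNT libraries, with a log2 fold change of 0.72 ± 0.23 (SE), which was 0.34 without the sgNT library of line 2 and 1.11 without that of line 1. Sfpq and Nono went the opposite way, at 243 and 222 CPM and at 312 and 307 CPM without a guide, with log2 fold changes of -0.58 ± 0.07 and -0.40 ± 0.06 (SE). Tardbp (-0.31 ± 0.06) and Rbm14 (-0.19 ± 0.08) were also lower in sgNT, and Pspc1 was at 45.4 and 43.6 CPM without a guide, a log2 fold change of 0.11 ± 0.08 (SE). This contrast was broad, since 20.9% of all 14655 genes tested were past the threshold of limma in the lower direction alone, with a median of 0.00 over all genes. Of the 23 other paraspeckle protein genes 13 were past it in that direction, with a median log2 fold change of -0.28, and of the 9 nuclear speckle protein genes 7 were, with a median of -0.40.  Whether the sgBcl-2 difference of Neat1 comes from a low sgBcl-2 group or a high sgNT group was not tested, and the no-guide libraries lay between them.

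**Figure D2:**
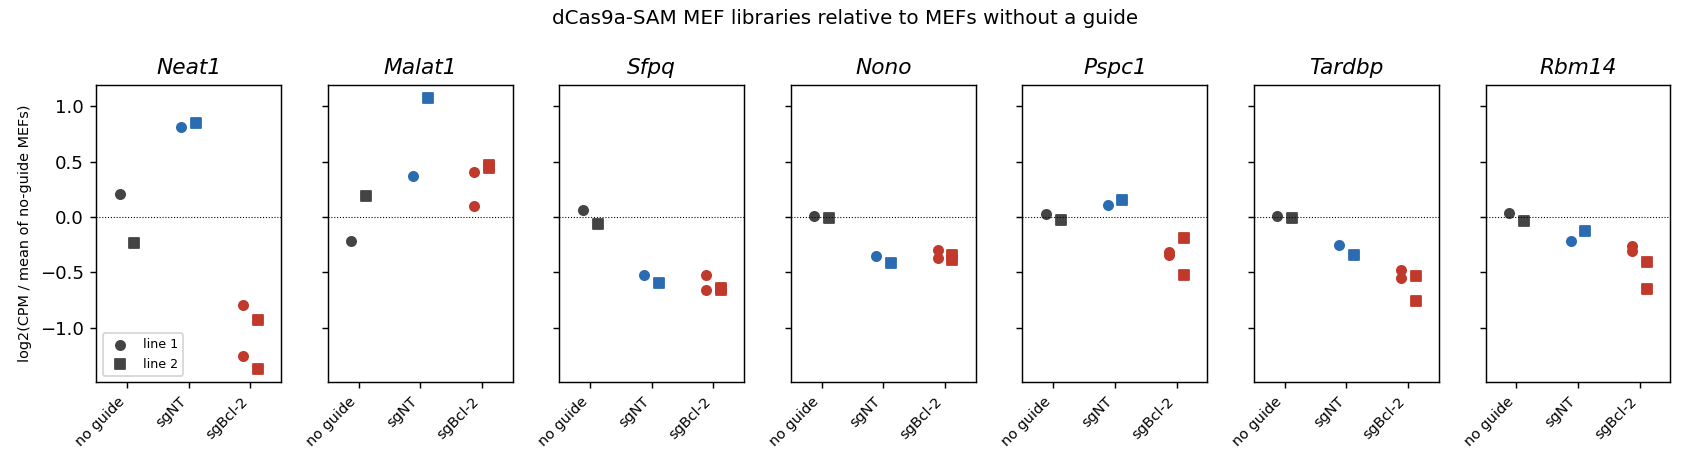
Each dCas9a-SAM MEF library as the log2 ratio of its CPM to the mean of the 2 no-guide libraries, with circles for line 1 and squares for line 2. Neat1 lies 0.81 and 0.85 above that mean with sgNT and 0.80 to 1.37 below it with sgBcl-2, and the Sfpq, Nono, Tardbp and Rbm14 points lie below it in both guide groups.

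The cassette without a guide was compared with WT MEFs (2 against 2 libraries), a comparison that does not use the libraries of the rule. By limma, 0 of the 7 members passed an adjusted p under 0.05, and 0% of all 14546 genes did. At an unadjusted p under 0.05 there were 1081 genes, 1 of them a member, Sfpq, and DESeq2 called 188 genes and 0 members. Sfpq was at 243 and 222 CPM without a guide and at 150 and 131 CPM in WT (log2 fold change 0.77 ± 0.22, adjusted p = 0.645). Nono, Pspc1 and Rbm14 also had higher values in both no-guide libraries than in both WT libraries, while Tardbp (log2 fold change 0.16 ± 0.18) overlapped. Neat1 (0.55 ± 0.41, limma adjusted p = 0.806) and Malat1 (-0.71 ± 0.41, limma adjusted p = 0.777) overlapped as well. With 2 libraries a side nothing is read from a lack of overlap, and its share over all genes was not counted. The WT libraries differed from each other, and Malat1 was at 503 and 1085 CPM in WT libraries 1 and 2. Without WT library 2, when the spread of the lone WT library is assumed to be that of the other group, 3 members passed (Sfpq, Nono and Rbm14, all higher without a guide), and without WT library 1, 6 members passed, all but Tardbp. Of all genes, 4712 of 14806 passed in the first of these fits and 8581 of 15566 in the second, which rests on WT library 2 alone. Neat1 was then 0.06 without WT library 2 and 1.09 without WT library 1, and Malat1 was -0.25 and -1.13.

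The lymphoma lines were next compared with the 4 MEF libraries that carry no guide, as a comparison of cell types that shares no library with the rule. Both RNAs were lower in the lymphoma lines and 4 of the 5 protein genes were higher. Culture medium, transformation, genotype and guide differ along with cell type between these groups and cannot be told apart. In the higher direction 4 of 7 members were called, where 32.9% of all 14476 genes were, and in the lower direction 2 of 7, where 41.3% of all genes were.

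Neat1 was at 27.8, 41.9, 36.1 and 22.7 CPM in the IgM-positive lines and at 28.9 and 15.8 CPM in the IgM-negative lines. All 6 lines lay below the lowest of the 4 MEF libraries, at 75.5 CPM. The group means differed 4.29-fold and the log2 fold change was -2.20 ± 0.30 (limma, adjusted p = 5.38e-05). Malat1 was between 51.0 and 136 CPM in the lines and between 381 and 1085 CPM in these MEFs, a 6.95-fold difference of means (log2 fold change -2.83 ± 0.31, adjusted p = 9.99e-06). Without WT library 2 the log2 fold changes were -2.46 for Neat1 and -2.57 for Malat1.

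Sfpq was between 662 and 732 CPM in the lines and between 131 and 243 CPM in the MEFs, with a log2 fold change of 1.88 ± 0.19 (limma, adjusted p = 5.79e-06). Rbm14 was between 132 and 147 CPM against 28.2 to 45.1 CPM (1.85 ± 0.16, adjusted p = 1.35e-06), and Tardbp between 597 and 730 CPM against 171 to 214.4 CPM (1.62 ± 0.10, adjusted p = 7.58e-08). Nono rose less, from 241 to 312 CPM in the MEFs to 497 to 609 CPM in the lines (0.87 ± 0.11, adjusted p = 3.74e-05). For these 4 genes no line overlapped with a MEF library. The share of all genes without overlap was not counted, and limma called 10742 of all 14476 genes in this comparison. Among the protein genes Pspc1 was the exception, with 43.8 to 111 CPM in the lines and 29.3 to 45.4 CPM in the MEFs. Its log2 fold change of 0.56 ± 0.25 did not pass (limma, adjusted p = 0.0661).

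Of the 23 other paraspeckle protein genes 19 were called higher and 0 lower by limma, with a median log2 fold change of 1.35 beside -0.21 over all genes. Hnrnpa1, a splicing regulator, had a log2 fold change of 1.87 ± 0.22. The genes that govern the choice of the Neat1 3′ end were all called higher, with Cpsf6 at 1.60 ± 0.23 and Nudt21 at 1.12 ± 0.14, which promote the short isoform, and Hnrnpk at 0.98 ± 0.09, which counters them. The 4 that did not pass were Ahdc1, Akap8l, Fam98a and Rbm7. All 9 nuclear speckle protein genes were called higher, with a median of 1.41, led by Srsf1 (2.17 ± 0.23) and Srsf2 (2.12 ± 0.22). Of 7 other nuclear-retained long RNAs, 4 were called lower (Meg3, Rian, Pvt1 and Tug1) and 0 higher, a lower share near the 41.3% of all genes. Tug1 had a log2 fold change of -0.61 ± 0.22 and Kcnq1ot1 one of 0.01 ± 0.23.

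**Figure D3:**
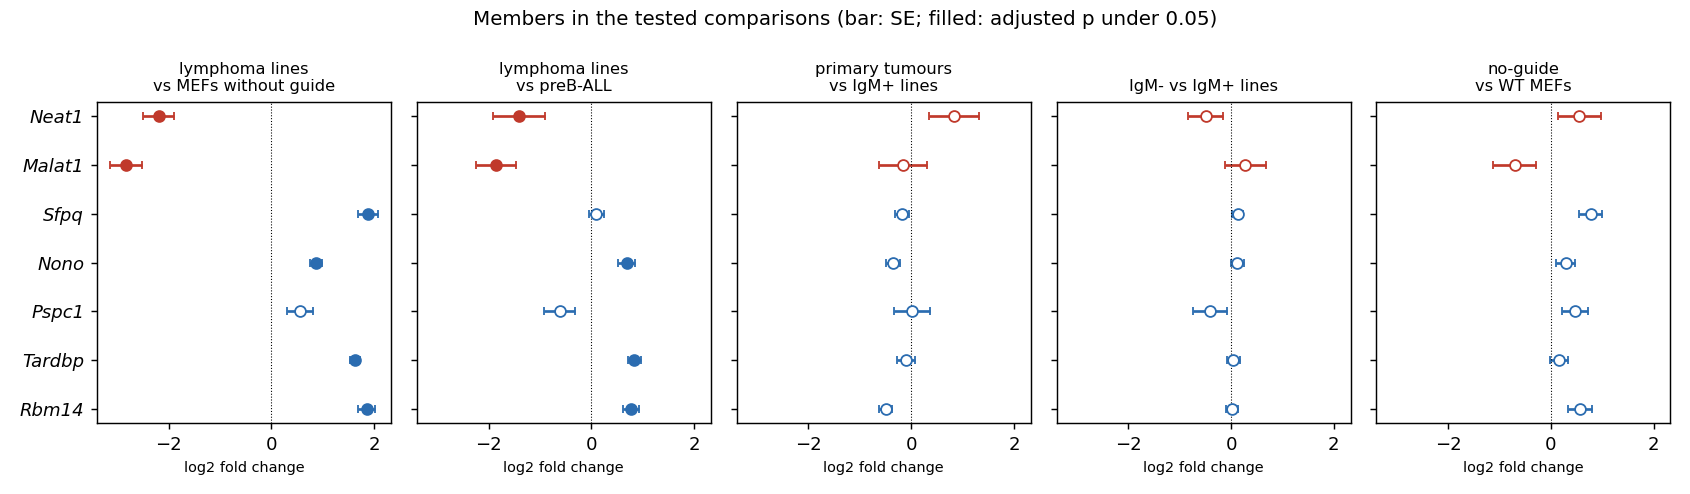
Log2 fold changes of the 7 members in the 5 tested comparisons, with SE as bars and filled points for an adjusted p under 0.05 by limma (RNAs red, protein genes blue). The RNAs lie left of 0 and the protein genes right of 0 in lymphoma lines against MEFs, and no point is filled in the 3 panels on the right.

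Against preB-ALL, another transformed B-lineage cell, Malat1 was lower in the 6 lymphoma lines, Neat1 was lower by a call that many alternatives lost, and Nono, Tardbp and Rbm14 were higher. The leukaemias differ from the lines also in RNA extraction kit, culture and sequencing run, which cannot be told apart from tumour type. By limma, 3 of 7 members were called higher, where 20.9% of all 13961 genes were, and 2 of 7 lower, where 22.5% of all genes were.

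Malat1 was at 285 and 553 CPM in preB-ALL, above all 6 lines, which reached 136 CPM (log2 fold change -1.86 ± 0.38, adjusted p = 0.0052). Neat1 was at 46.8 CPM in P190CreERLSLErg and at 189 CPM in P190RagCreErg, so that the first library lay near the highest line at 41.9 CPM. Its log2 fold change was -1.41 ± 0.50 (limma, adjusted p = 0.0497), next to the threshold, and the call was lost in 8 of the alternatives, among them limma-voom, no filter on low genes and leaving out any 1 of the lines except IgM-positive line 2. Without P190RagCreErg the Neat1 value was -0.50 (adjusted p = 0.497), and Malat1 (-1.48, adjusted p = 0.0885) and Nono (0.39, adjusted p = 0.121) did not pass either. The summed fibroblast markers were above those of the lines in both leukaemias, and higher in P190CreERLSLErg, the library with the lower Neat1 and Malat1. Of the 12 markers, 1 was at 0 in P190CreERLSLErg and 2 were at 0 in P190RagCreErg. Whether cell content has a part in the Neat1 and Malat1 values was not tested.

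Tardbp was at 476 and 460 CPM in preB-ALL, below the lowest line at 597 CPM (log2 fold change 0.84 ± 0.13, limma adjusted p = 0.00148). Rbm14 was at 127 and 88.3 CPM, below the lowest line at 132 CPM (0.77 ± 0.16, adjusted p = 0.00547), and its value was 0.41 without P190RagCreErg (adjusted p = 0.0416). Nono was at 505 and 382 CPM, and its CPM overlapped with the lines (0.69 ± 0.17, adjusted p = 0.0107). When libraries were left unscaled the median over all genes shifted from -0.07 to -0.42, and the Nono value was 0.32 (adjusted p = 0.103).

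Sfpq and Pspc1 did not pass. Sfpq was at 884 and 806 CPM in preB-ALL, above the lines in CPM, while after scaling its log2 fold change was 0.10 ± 0.14 (adjusted p = 0.619). Pspc1 was at 103 and 136 CPM, with IgM-positive line 2 at 111 CPM between them (-0.62 ± 0.31, adjusted p = 0.14). Of the 23 other paraspeckle protein genes, 11 were called higher in the lines and 2 lower, with a median of 0.37 beside -0.07 over all genes. Hnrnpa1 (1.65 ± 0.22) and Rbm3, a cold-induced RNA-binding protein (1.43 ± 0.15), were among the higher ones, and the lower ones were Akap8l (-1.19 ± 0.27) and Cirbp (-1.15 ± 0.26). Cpsf6, Nudt21 and Hnrnpk were again all called higher, between 0.50 and 0.76 after scaling, while their unscaled means were closer, at 311 against 276 CPM for Cpsf6, 27.4 against 24.9 CPM for Nudt21 and 313 against 240 CPM for Hnrnpk. Of the 9 nuclear speckle protein genes 7 were called higher and 0 lower.

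Within the lymphomas the members varied unequally. Over the 6 lines the coefficient of variation was 32.3% for Neat1, 32.6% for Malat1 and 39.8% for Pspc1, against 4.21% for Sfpq, 4.46% for Rbm14, 7.31% for Nono and 8.49% for Tardbp. The highest line held 2.66 times the Neat1 CPM of the lowest and 1.10 times for Sfpq. Between IgM-negative and IgM-positive lines, 0 of 7 members were called by limma at an adjusted p under 0.05, where 0.597% of all 12386 genes were. Also 0 of 7 had an unadjusted p under 0.05, and 0 were called by limma-voom, edgeR or DESeq2. The estimates were -0.49 ± 0.34 for Neat1, 0.28 ± 0.40 for Malat1, -0.41 ± 0.34 for Pspc1 and between 0.01 and 0.13 for the other 4 genes, all within the spread between lines by this test. Leaving out 1 line moved Neat1 between -0.94 (without IgM-negative line 1) and -0.02 (without IgM-negative line 2), Malat1 between 0.03 (without IgM-positive line 2) and 0.54 (without IgM-positive line 3), and Pspc1 between -0.60 (without IgM-positive line 1) and -0.18 (without IgM-positive line 2).

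No correlation of Neat1 with a partner passed the test across the 6 lines. Pearson's r of the log2 scaled CPM was -0.61 with Sfpq, -0.61 with Rbm14, -0.41 with Nono, -0.13 with Malat1, 0.09 with Tardbp and 0.56 with Pspc1. Spearman's rho was -0.66, -0.83, -0.43, -0.20, 0.03 and 0.54 in that order. By exact two-sided permutation the unadjusted p of r ranged from 0.19 to 0.853 (n = 6), and that of rho was smallest for Rbm14, at 0.0583. Adjusted over the 6 partners by Benjamini and Hochberg, the p of r was 0.514 or more and the smallest p of rho was 0.35 (exact permutation). Leaving out IgM-negative line 2 and IgM-positive line 2, the 2 farthest from the Neat1 median, r became 0.99 with Malat1, -0.25 with Pspc1 and -0.44 with Tardbp over the 4 remaining lines, so the signs for these partners rest on those lines. The values for Sfpq (-0.37), Nono (-0.38) and Rbm14 (-0.16) kept their sign.

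**Figure D4:**
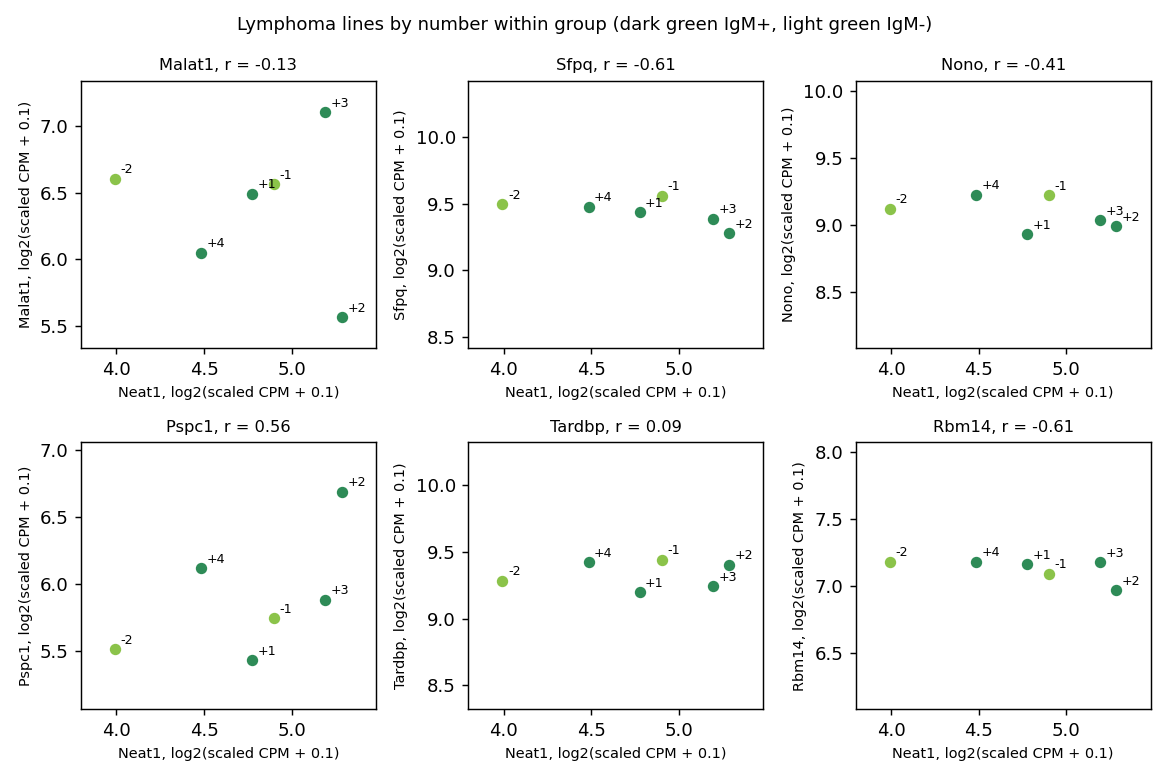
Log2(scaled CPM + 0.1) of each partner against Neat1 in the 6 lymphoma lines, labelled + or - for IgM and by number, with each vertical axis spanning 2 log2 units. Sfpq, Nono, Tardbp and Rbm14 are nearly flat, while Malat1 (r = -0.13) and Pspc1 (r = 0.56) scatter.

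In the primary tumours, Nono and Rbm14 lay below the lines in CPM and the other members overlapped with them. The share of all genes that separate in this way was not counted, so nothing is read from this separation. Against the 4 IgM-positive lines, 0 of 7 members were called by limma at an adjusted p under 0.05, where 10.9% of all 12983 genes were. At an unadjusted p under 0.05 there were 2 members, Nono and Rbm14, and DESeq2 called these 2 while limma-voom and edgeR called 0. Of all genes, 3971 had an unadjusted p under 0.05 and DESeq2 called 3062, so that 2 of 7 is near the share over all genes. Neat1 was at 32.0 and 99.1 CPM in the tumours and between 22.7 and 41.9 CPM in these lines (log2 fold change 0.83 ± 0.49, adjusted p = 0.299). The difference lay in 1 tumour, and without it the value was -0.03. The fibroblast markers summed to 1373 CPM in the library with 99.1 CPM of Neat1 and to 1342 CPM in the other, and the myeloid markers to 31.9 and 35.7 CPM. Whether cell content has a part in the Neat1 difference was not tested.

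Malat1 was at 54.2 and 98.99 CPM in the tumours, within the range of the lines (-0.16 ± 0.46). Rbm14 was at 114 and 91.9 CPM, below all 4 lines at 135 to 147 CPM (-0.50 ± 0.13, limma adjusted p = 0.0579), and Nono was at 424 and 435 CPM, below all 4 lines at 497 to 609 CPM (-0.35 ± 0.13, adjusted p = 0.132). Sfpq (-0.18 ± 0.14), Tardbp (-0.10 ± 0.17) and Pspc1 (0.02 ± 0.35) overlapped with the lines. Of the 23 other paraspeckle protein genes 3 were called lower, Smarca4 (-0.97 ± 0.21), Hnrnpul1 (-0.67 ± 0.13) and Fam98a (-0.62 ± 0.12), and 1 higher, Akap8l (0.92 ± 0.16). Of all 12983 genes tested, limma called 637 lower and 781 higher.

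Ordered by group mean, Neat1 ran from sgNT MEFs (256 CPM) through no-guide MEFs (144), preB-ALL (118), WT MEFs (104), sgBcl-2 MEFs (68.6), primary tumours (65.6) and IgM-positive lines (32.1) to IgM-negative lines (22.3). The sgNT libraries did not overlap with the no-guide libraries, and from there down each group overlapped with the next. Sfpq had a different order, from preB-ALL (845 CPM) through IgM-negative lines (725), IgM-positive lines (690) and primary tumours (621) to no-guide MEFs (232), sgNT MEFs (158), sgBcl-2 MEFs (151) and WT MEFs (140). These are unscaled CPM, and after scaling the log2 fold change of Sfpq in the lines against preB-ALL was 0.10 ± 0.14 (SE). Malat1 was highest in WT MEFs (794 CPM, but 503 CPM without WT library 2, which stood apart) and sgNT MEFs (755) and lowest in primary tumours (76.6), and its sgNT libraries overlapped with those of WT and sgBcl-2 but not with those without a guide.

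Likeness over all 20 libraries was measured as the root mean square difference of centred log2 profiles among 13779 other genes with a mean of at least 1 CPM. It is a description, since the libraries of a cell type share most of their differences and the profile of Neat1 holds the contrast of the rule. The 5 genes nearest to Neat1 were Bpgm (0.57), Bet1l (0.62), Marchf2 (0.62), Trafd1 (0.62) and Snx32 (0.63). Bpgm, the enzyme that makes 2,3-bisphosphoglycerate, had a mean of 52.1 CPM in sgNT, 30.8 in no-guide and 28.8 in sgBcl-2 MEFs, and of 10.8 in IgM-positive lines. Malat1 was at rank 1436 with a difference of 0.98, ahead of Pspc1 at rank 4761 (1.34), Nono at 6771 (1.55), Rbm14 at 9369 (1.90), Tardbp at 9417 (1.91) and Sfpq at 9845 (1.99). The genes nearest to Malat1 were Zfand3 (0.38), Grina (0.42), Ctsb (0.46), Rab12 (0.46) and Mapk3 (0.46), and Neat1 was at rank 1068.

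The genes around Neat1 and Malat1 and the genes known to induce Neat1 were read in the same fits. Of 33 genes within 250 kb, 27 were tested in lymphoma lines against MEFs, where 12 were called higher and 9 lower, shares not far from the 32.9% and 41.3% of all genes, with a median log2 fold change of 0.39. Among them, picked after their values were seen, Frmd8 was lower in the lines (-1.48 ± 0.12) and Syvn1, a ubiquitin ligase of the endoplasmic reticulum, was higher (1.63 ± 0.18). In sgBcl-2 against sgNT MEFs their median was 0.04 over 30 genes, with Cdc42ep2 the one most different (1.01 ± 0.07) and in the direction opposite to Neat1. Of the 5 known inducers, Trp53 (0.64 ± 0.13) and Hsf1 (0.41 ± 0.11) were called higher in the lines than in MEFs, and Hif1a (-0.97 ± 0.20) and Epas1 (-6.17 ± 0.74) lower. In sgBcl-2 against sgNT MEFs the inducers lay between -0.35 (Epas1) and 0.16 (Atf2). In sgNT against no-guide MEFs, Hif1a (1.07 ± 0.16) and Epas1 (0.69 ± 0.12) were higher and Trp53 (-0.14 ± 0.06), Hsf1 (-0.10 ± 0.07) and Atf2 (-0.33 ± 0.10) had values below 0, and their part in the Neat1 levels was not tested.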

How the data were processed

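RNA-seq libraries of mouse MEFs, lymphoma lines, primary lymphomas and preB-ALL were prepared with the TruSeq RNA library kit, after extraction with a Zymo Research kit or, for preB-ALL, a Qiagen kit. The authors used Rsubread for alignment (GRCm38) and for assigning reads to Entrez genes, and deposited CPM values, whose columns have equal totals. Whole reads were recovered from 100% of the values (within 0.1 reads). The strand setting is not given in the sources used here. Samples were grouped by their labels. Replicates are 2 to 6 libraries per group, and where they are not separate animals or lines the p-values measure only the spread between these samples.

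Low genes were dropped with filterByExpr of edgeR, applied to the recovered counts. TMM factors were then computed, and limma with trend was fitted on log2(TMM-scaled CPM + 0.1) for the groups compared, with a threshold of 0.05 after Benjamini-Hochberg adjustment over all genes tested. R 4.3.3 with limma 3.58.1, edgeR 4.0.16 and DESeq2 1.42.0 and Python 3.11.15 were used. Fold changes are on that log2 scale, and ± is SE. Fits were tested on simulated data. RefSeq names matched 25242 of 25869 identifiers. All members were named, with the 5 genes nearest to Neat1 and to Malat1 and example genes from the lists, picked after their values were seen. The members and the lists were chosen with earlier results of these data known. Alternatives were no scaling, other pseudocounts (0.5 and 1 CPM), filters, tools and sample sets, replicate blocks and leaving out each replicate.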

Additional observations from a re-analysis of the deposited data

Results flagged for a closer look

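Sfpq in sgBcl-2 MEFs had 1 library of the 4 apart from the rest. It was at 162 CPM in replicate 2, with the others between 147 and 149 CPM, and its gap to the nearest was 0.84 of the range, above the 95% value of Dixon's test for 4 samples. Of 14 groups of 4 libraries tested over the 7 members this was the only one, and chance flags about 1 in 20 groups.

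Rbm14 differed in direction between the MEF lines in sgBcl-2 against sgNT. After scaling, both sgBcl-2 libraries of line 1 lay above its sgNT library, with a mean log2 difference of 0.07, and both of line 2 lay below, with a mean of -0.32. In unscaled CPM both lines were lower, at 35.7 and 36.8 against 38.0 CPM in line 1 and at 33.3 and 28.1 against 40.3 CPM in line 2. The lines differed by 0.39, and this difference was not tested.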

How the results depend on the processing

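Among the 35 values of members in tested comparisons, the alternatives gave 595 values, of which 539 had the direction and the side of the threshold of the reported value, 11 lost and 20 gained significance and 25 changed sign, none of them significant before or after. Lymphoma lines against MEFs gave 6 or 7 members called in all alternatives. Leaving out 1 library gave 2 to 6 members in lines against preB-ALL (2 without P190RagCreErg, where 3177 of 14333 genes were called, and 6 without IgM-positive line 2, with 6061 of 13821) and 0 to 6 in no-guide against WT MEFs (6 without WT library 1, with 8581 of 15566), where all 20 libraries in 1 fit gave 1 (493 of 16483). In primary tumours against lines, DESeq2 (3062 of 12983 genes) and all 20 libraries in 1 fit (3511 of 16483) each gave 2. Neat1 in lines against preB-ALL lost its call also with no filter (adjusted p = 0.0589), with limma-voom (adjusted p = 0.0511) and without any 1 of the 6 lines except IgM-positive line 2, with adjusted p over all alternatives from 0.00247 to 0.497. The causes were not tested.

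Sign changes were as follows. Sfpq in lines against preB-ALL was -0.27 with no scaling factor and -0.0058 by DESeq2, and -0.069 (without P190RagCreErg) to 0.17 when 1 library was left out. In IgM-negative against IgM-positive lines with no scaling factor, Tardbp was -0.013 and Rbm14 -0.044, and with 1 line left out Tardbp ranged from -0.029 to 0.14 and Rbm14 from -0.036 to 0.063. In tumours against lines, Pspc1 was -0.012 with no filter, -0.040 by edgeR, -0.065 by DESeq2 and -0.021 with all 20 libraries. With 1 library left out there, Neat1 ranged from -0.025 to 1.63, Malat1 from -0.64 to 0.26, Pspc1 from -0.27 to 0.24 and Tardbp from -0.39 to 0.13, with both ends set by leaving out a tumour. With the lines of the same 2 mice, and with the mouse as a replicate block by title or description, Malat1 was 0.052 and Pspc1 -0.076, and 0 members were called. Without the 2 farthest lines, r with Neat1 was 0.99 for Malat1, -0.25 for Pspc1 and -0.44 for Tardbp.

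The MEF line numbers are shared by only 2 pairs. The correlation of their line differences was 0.35 for sgBcl-2 with sgNT, -0.05 for sgNT with no guide and 0.06 for no guide with WT. WT and dCas9a-SAM MEFs come from different embryos, so that a number shared by no guide and WT is only a label and makes no pair. When the line number was a replicate block, 0 members were called in no-guide against WT MEFs, which is no check for that reason. With this block Neat1 in sgBcl-2 against sgNT was -1.83. Neat1 in that contrast lay between -1.92 and -1.75 in all alternatives.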
